A study of Mus musculus with 2 samples.

Results

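Camk2a, Camk2b, Camk2d and Camk2g encode the alpha, beta, delta and gamma isoforms of calcium/calmodulin-dependent protein kinase II. They were taken by name, as the whole gene family, and are 4 of the 28692 genes in the deposited matrices. Their levels and their mix were followed across habenula neurons, neighbouring neurons and glia of 2 droplet single-cell RNA libraries from mouse habenula. One library came from foot-shocked mice and one from control mice, each made from the pooled tissue punches of 4 adult C57BL/6 males aged 50 to 55 days. The foot shock mice were habituated to the shock chamber for 10 min a day over 7 days and then received 30 shocks of 0.3 mA and 1 s within 60 min. They were killed directly after the session. The control mice came straight from the home cage. Both groups had been handled for 5 min a day over 7 days, so chamber exposure and shock cannot be told apart. Tissue of both groups was kept in a cocktail of TTX, APV, DNQX, actinomycin and anysomycin, which block sodium channels, glutamate receptors, transcription and translation, and dying cells were removed before capture. With 1 library a group there was no replicate, and no comparison below has a test between conditions.

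CaMKII is a multi-subunit kinase that calcium-loaded calmodulin switches on and that stays active for a time by phosphorylating itself. The alpha and beta isoforms are best known from neurons, where alpha acts in synaptic plasticity and beta also binds actin, while delta and gamma are found in many tissues, including heart and smooth muscle. In rodent lateral habenula, work on the beta isoform has tied its amount to depression-like behaviour. Neurons of the medial habenula (MHb) release acetylcholine or substance P together with glutamate, and neurons of the lateral habenula (LHb) are largely glutamatergic.

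The files hold every barcode of each library, with 22189951 unique molecular identifiers (UMIs, 1 per captured RNA molecule) in the foot shock library and 23095501 in the control library. After filters on depth and mitochondrial share, 4771 foot shock cells and 4880 control cells were kept, with a median of 2698 UMIs in foot shock and 2416.5 in control. A doublet caller had removed 69 foot shock cells (1.43%) and 249 control cells (4.85%). The kept cells of both libraries shared 32 barcodes, against 31.6 if barcodes were drawn at random. The libraries differed in makeup. The foot shock library held 503 cells of an epithelial-like cluster and 45 fibroblast-like cells, and the control library held none of either.

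Cells were grouped by clustering without the Camk2 genes and named from marker genes, so no Camk2 value entered a class. MHb-like neurons numbered 1620 in the foot shock library and 1206 in the control library. LHb-like neurons numbered 855 in the foot shock library and 962 in the control library. Summed over 10 MHb markers, LHb-like neurons had 1518 CPM in foot shock and 1191 in control, and MHb-like neurons 5444 in foot shock and 5157 in control. Thalamus-like neurons, which led in Gbx2, Ramp3, C1ql3 and their companions, numbered 57 in foot shock and 132 in control. A group of other neurons, 196 in foot shock and 273 in control, carried neuronal genes but too little Pou4f1, the transcription factor of habenula neurons, to be called habenular. The summed LHb markers of this group came to 2977 CPM in the foot shock library and 3093 in the control library, where LHb-like neurons had 3145 in foot shock and 2988 in control. Its Pou4f1 level was 26.0 CPM in foot shock and 15.6 in control, against 445 in foot shock and 500 in control LHb-like neurons. Of 6 hippocampal and cortical neuron markers, 3 were detected in the other neurons of either library, and Tbr1 and Fezf2 were among those at 0. Those detected were Neurod6 (12.3 CPM in foot shock, 17.2 in control), Neurod2 (30.1 and 32.0) and Bhlhe22 (21.9 and 7.37). LHb-like neurons had Neurod6 at 0 in both libraries, and MHb-like neurons had 2.49 CPM in foot shock and 3.19 in control. Neurod2 was at 42.6 CPM in foot shock and 41.5 in control MHb-like neurons. A hippocampal or cortical part of the other neurons was not tested. Levels are counts per 1000000 (CPM): a gene's UMIs divided by the UMIs of all genes in that class and library. UMIs come from the 3′ end of an RNA, so CPM was not divided by gene length, and capture can differ between genes. The mix, the share of each gene in the UMIs of all 4, is therefore compared between classes rather than read as a ranking of isoforms. Brackets hold exact 95% intervals, Poisson for levels, Clopper-Pearson for shares and conditional binomial for ratios, and all cover counting error only. A class needed 20 cells for a level. Macrophage-like cells of both libraries and ependymal-like cells of the control library had fewer.

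The 4 genes lie on different chromosomes (mm10, GENCODE vM21). Camk2a (ENSMUSG00000024617) is on chromosome 18, 60925618 to 60988152, plus strand. Camk2b (ENSMUSG00000057897) is on chromosome 11, 5969644 to 6066362, minus strand. Camk2d (ENSMUSG00000053819) is on chromosome 3, 126596302 to 126846326, plus strand. Camk2g (ENSMUSG00000021820) is on chromosome 14, 20734875 to 20794088, minus strand. Gm15551 overlaps Camk2d on the opposite strand, and its part in the Camk2d counts was not tested. No overlap was annotated for the other genes.

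In habenula neurons most of the 4-gene UMIs came from Camk2d and Camk2b and few from Camk2a. In foot shock MHb-like neurons, Camk2d made up 47.7% of the 4-gene UMIs, Camk2b 37.7%, Camk2g 13.5% and Camk2a 1.13%. The control library gave 47.4%, 38.3%, 12.1% and 2.30% for the same genes. LHb-like neurons had a similar mix apart from Camk2a, with Camk2d at 49.8%, Camk2b at 33.2%, Camk2g at 11.8% and Camk2a at 5.14% in the foot shock library. In control LHb-like neurons the shares were 47.6%, 35.1%, 11.3% and 5.97%. The thalamus-like mix was another one, with Camk2b at 41.7% in the foot shock library and 41.0% in the control library. Camk2a took 16.1% (11.7 to 21.4) in foot shock and 17.0% (14.4 to 19.8) in control there, with intervals that did not overlap those of LHb-like neurons, 4.24 to 6.17 in foot shock and 5.12 to 6.91 in control. Astrocyte-like cells had a larger share of Camk2g than either habenula class, at 52.9% (42.8 to 62.8) in foot shock and 64.7% (60.3 to 68.9) in control, with Camk2d at 38.5% in foot shock and 31.2% in control. Camk2a and Camk2b together were the smaller part of the mix in astrocyte-like cells of both libraries.

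**Figure D1:**
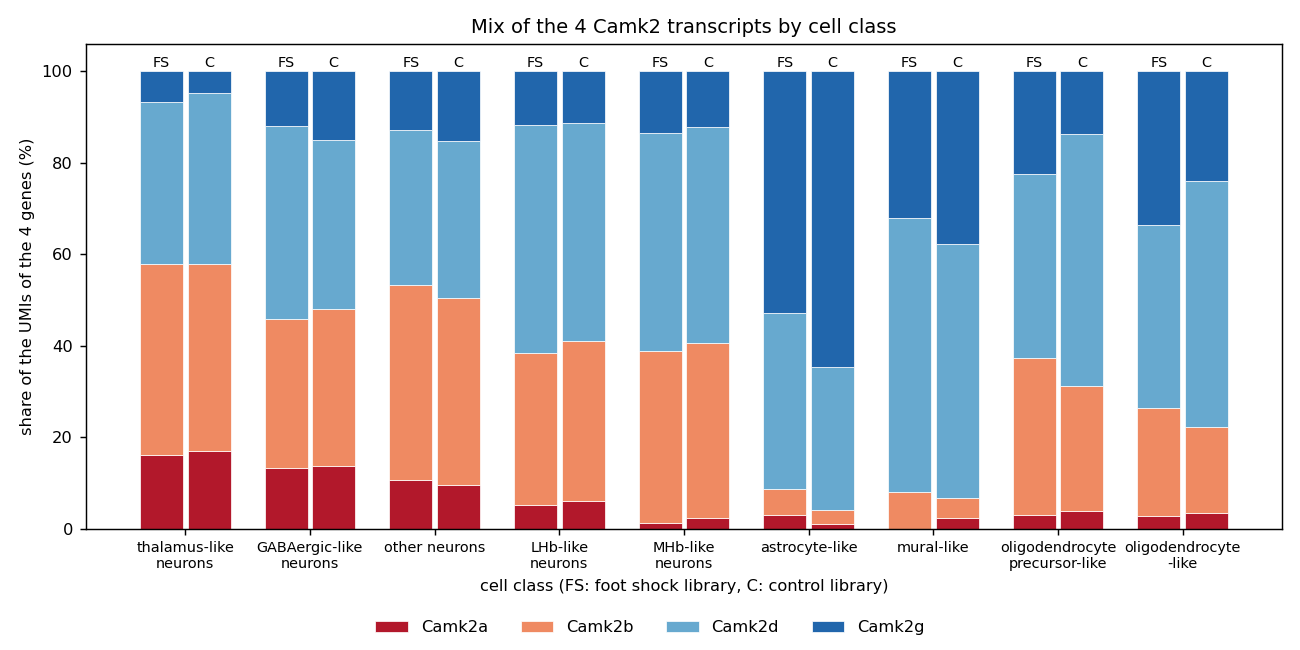
Share of each Camk2 gene in the 4-gene UMIs (percent, stacked bars) for 9 cell classes, with the foot shock bar left of the control bar in each. Camk2a is widest in thalamus-like neurons (16.1% in foot shock, 17.0% in control) and Camk2g in astrocyte-like cells (52.9% in foot shock, 64.7% in control).

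The summed level of the 4 genes also differed between classes. It was 919 CPM in thalamus-like neurons of the foot shock library and 983 in those of the control library. Other neurons reached 812 CPM in foot shock and 861 in control, LHb-like neurons 668 in foot shock and 669 in control, and MHb-like neurons 553 in foot shock and 538 in control. Astrocyte-like cells had 547 CPM in foot shock and 647 in control and mural-like cells 609 in foot shock and 555 in control. Oligodendrocyte-like cells stood far lower, at 62.8 CPM in foot shock and 50.8 in control, and the epithelial-like cells of the foot shock library had 25.1 CPM.

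**Figure D2:**
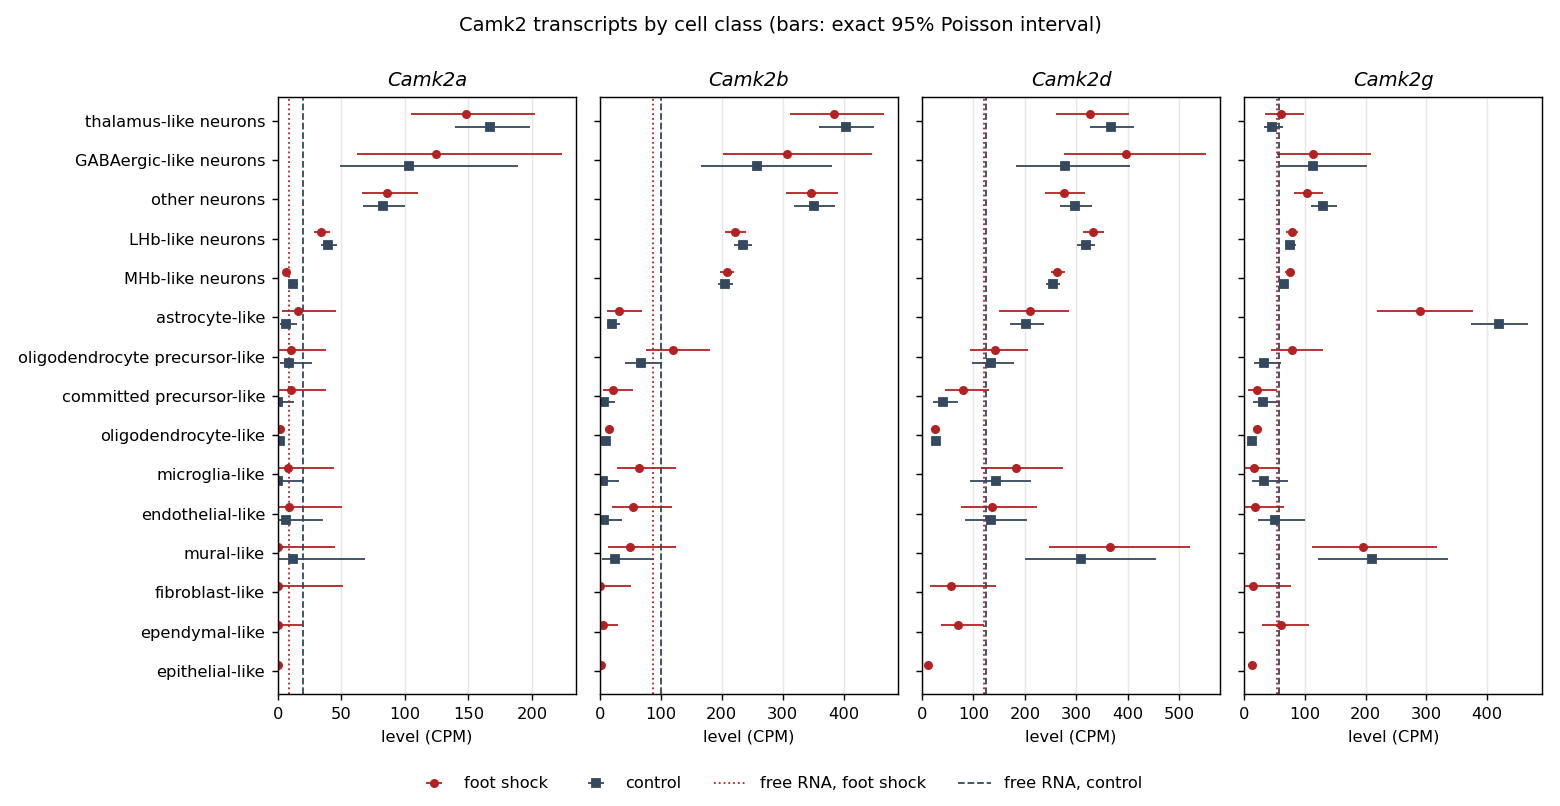
Level of each Camk2 gene (CPM) by cell class, with red circles for the foot shock library above dark squares for the control library, bars for the exact 95% interval, and vertical lines for the level in free RNA. Camk2a of MHb-like neurons (6.23 CPM in foot shock, 12.4 in control) lies below the free RNA lines (9.07 in foot shock, 20.0 in control).

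Camk2a, the alpha isoform, set the neuron classes apart most. Thalamus-like neurons had 39 UMIs and 148 CPM (105 to 202) in the foot shock library, and 130 UMIs and 167 CPM (139 to 198) in the control library. GABAergic-like neurons, with 28 cells in foot shock and 22 in control, had 125 CPM (62.4 to 223) in foot shock and 103 (49.4 to 189) in control. Other neurons had 86.1 CPM (66.2 to 110) in foot shock and 82.7 (67.4 to 101) in control. In neither library did thalamus-like differ from GABAergic-like neurons, or GABAergic-like from other neurons, beyond counting error. Thalamus-like over other neurons, the ratio was 1.72 (1.12 to 2.60) in foot shock and 2.02 (1.54 to 2.64) in control. LHb-like neurons had 109 UMIs and 34.4 CPM (28.2 to 41.5) in the foot shock library, and 168 UMIs and 39.9 CPM (34.1 to 46.4) in the control library. MHb-like neurons had 35 UMIs and 6.23 CPM (4.34 to 8.67) in foot shock, and 62 UMIs and 12.4 CPM (9.49 to 15.9) in control. Other neurons exceeded LHb-like neurons, and LHb-like exceeded MHb-like neurons, beyond counting error in both libraries. Glia had very few Camk2a molecules: 3 in foot shock and 5 in control astrocyte-like cells, and 3 in foot shock and 4 in control oligodendrocyte-like cells. The epithelial-like cells had 0 UMIs, which allows a level of up to 2.43 CPM.

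Droplets also carry free RNA from broken cells, measured here in barcodes with 10 to 100 UMIs. Free RNA held Camk2a at 9.07 CPM (6.32 to 12.6) in the foot shock library and 20.0 (15.6 to 25.1) in the control library. Both values were above the MHb-like level of the same library. Comparing levels does not give the share of MHb-like Camk2a UMIs that came from free RNA. From genes that mark other cell types, free RNA was estimated at 10.1% of the foot shock and 7.87% of the control MHb-like profile. Its part in the MHb-like Camk2a level was not tested. LHb-like and thalamus-like neurons were above the free RNA level of Camk2a in both libraries. A Camk2a UMI was found in 11.1% (9.08 to 13.4) of foot shock LHb-like neurons and 14.6% (12.4 to 16.9) of control ones. It was found in 2.10% (1.46 to 2.92) of foot shock and 5.06% (3.89 to 6.45) of control MHb-like neurons. After thinning each cell to 1000 UMIs, the shares were 3.45% in foot shock and 3.82% in control LHb-like neurons and 0.652% in foot shock and 1.27% in control MHb-like neurons. In oligodendrocyte-like cells, taken as a class without the gene, the unthinned shares were 0.352% in foot shock and 0.369% in control. The median depths were 3628 UMIs in foot shock and 4346.5 in control LHb-like, 3469.5 in foot shock and 4224.5 in control MHb-like and 1861 in foot shock and 2068 in control oligodendrocyte-like cells.

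LHb-like over MHb-like, the Camk2a level ratio was 5.52 (3.74 to 8.32) in the foot shock library and 3.23 (2.40 to 4.39) in the control library. Camk2a was thus the only one of the 4 genes at least 1.5-fold higher in LHb-like neurons in either library. Among all genes with at least 100 UMIs, 17.1% in the foot shock library and 18.9% in the control library were at least 1.5-fold higher, and 13.7% were so in both. TMM scaling moved the median gene by 0.16 on the log2 scale in each library. The value depended on which cells counted as LHb-like. Without the Megf11 and Fam19a1 subclusters, whose Pou4f1 was lowest, it was 4.05 in the foot shock library and 1.98 in the control library, a choice made after the data were seen.

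The other 3 genes differed little between the 2 habenula parts. Camk2b was at 222 CPM (206 to 239) in foot shock LHb-like and 208 (196 to 220) in foot shock MHb-like neurons, and at 235 (220 to 250) in control LHb-like and 206 (194 to 219) in control MHb-like neurons. Its ratio of 1.07 (0.970 to 1.17) in foot shock and 1.14 (1.04 to 1.25) in control went below 1 in the foot shock library under TMM scaling, at 0.957, and in the control library without the same 2 subclusters, at 0.904. Camk2d was at 333 CPM (313 to 354) in foot shock LHb-like and 263 (250 to 277) in foot shock MHb-like neurons, and at 318 (302 to 336) in control LHb-like and 255 (241 to 269) in control MHb-like neurons. Its ratio was 1.26 (1.17 to 1.37) in foot shock and 1.25 (1.16 to 1.35) in control, and it stayed above 1 in every alternative run, at 1.13 in foot shock and 1.12 in control with TMM scaling. Camk2g was at 78.9 CPM in foot shock LHb-like and 74.8 in foot shock MHb-like neurons, and at 75.8 in control LHb-like and 64.9 in control MHb-like neurons. Its ratios of 1.05 (0.898 to 1.24) in foot shock and 1.17 (0.998 to 1.37) in control could not be told from 1 by counting error. Single neurons often carried several isoforms. Camk2b and Camk2d were seen in the same cell in 32.3% of foot shock and 37.5% of control LHb-like neurons, and in 28.4% of foot shock and 33.3% of control MHb-like neurons. After thinning to 1000 UMIs these shares were 4.91% in foot shock and 4.59% in control LHb-like and 4.00% in foot shock and 3.52% in control MHb-like neurons.

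Thalamus-like neurons carried more of the alpha and beta isoforms than LHb-like neurons. For Camk2a the thalamus-like over LHb-like ratio was 4.31 (2.91 to 6.26) in the foot shock library and 4.18 (3.30 to 5.29) in the control library. For Camk2b, at 383 CPM (312 to 466) in foot shock and 403 (360 to 450) in control thalamus-like neurons, it was 1.73 (1.39 to 2.13) in foot shock and 1.72 (1.51 to 1.95) in control. Camk2d was much the same in the 2 classes, with ratios of 0.980 (0.777 to 1.22) in foot shock and 1.15 (1.01 to 1.31) in control. Camk2g was lower in thalamus-like neurons of the control library, 46.2 CPM against 75.8 in LHb-like neurons, a ratio of 0.610 (0.419 to 0.862), and at 0.770 (0.433 to 1.28) in the foot shock library. Over the alternatives the Camk2g ratio lay between 0.634 and 1.23 in foot shock and between 0.387 and 0.865 in control, and the foot shock Camk2b ratio between 1.59 and 2.78. The background here was wide. Of genes with at least 100 UMIs, 35.0% in the foot shock library and 28.5% in the control library differed at least 1.5-fold in either direction, and 2 of the 4 Camk2 genes in foot shock and 3 in control did so. Free RNA, estimated from genes that mark other cell types, came to 49.2% of the foot shock and 42.9% of the control thalamus-like profile. With that estimate subtracted, the Camk2a ratio was 7.43 in the foot shock library and 6.59 in the control library. Pou4f1 was at 11.4 CPM in foot shock and 8.99 in control thalamus-like neurons. Astrocyte-like cells, with estimates of 45.0% in foot shock and 30.1% in control, had 52.6 CPM of it in foot shock and 25.3 in control. The thalamus-like estimate may thus be too high, which was not tested.

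Other neurons were also above LHb-like neurons in Camk2a and Camk2b, and in Camk2g as well. Other over LHb-like neurons, the ratio of Camk2a was 2.51 (1.81 to 3.45) in the foot shock library and 2.07 (1.60 to 2.67) in the control library. Camk2b gave 1.56 (1.34 to 1.80) in foot shock and 1.49 (1.33 to 1.67) in control, Camk2d 0.829 (0.710 to 0.965) in foot shock and 0.934 (0.829 to 1.05) in control, and Camk2g 1.32 (1.01 to 1.71) in foot shock and 1.72 (1.41 to 2.08) in control. In each library 2 of the 4 genes were past 1.5-fold, against 18.9% of all genes in the foot shock library and 16.4% in the control library. Not all LHb-like neurons were below the other neurons. The LHb-like Megf11/Cbln1/Necab1 subcluster had Camk2a at 87.2 and Camk2b at 346 CPM over both libraries. Other neurons had Camk2a at 86.1 CPM in foot shock and 82.7 in control, and Camk2b at 346 in foot shock and 351 in control. The direction depended on how neurons were assigned. With neurons assigned cell by cell from marker counts, Camk2a of the foot shock library, Camk2b of the control library and Camk2g of both libraries turned to below 1. Thalamus-like over other neurons, Camk2g was 0.584 (0.318 to 1.01) in the foot shock library, an interval that holds 1, and 0.355 (0.240 to 0.512) in the control library.

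Within the LHb all 4 isoforms were spread unevenly over 10 subclusters, named here by some of their leading genes. Camk2a was highest in the Megf11/Cbln1/Necab1 subcluster, with 95.3 CPM (67.8 to 130) in 121 foot shock cells and 84.2 (68.0 to 103) in 280 control cells. It was lowest by level in the Peg10/Wif1/Rprm subcluster, with 9.91 CPM in foot shock and 13.5 in control. Camk2b took the largest share of the mix in 3 subclusters, Megf11, Ddc and Fam19a1, in both libraries. It reached 317 CPM in foot shock and 276 in control cells of Ddc/Col2a1/Fam19a2 and 296 CPM in foot shock and 365 in control cells of Megf11/Cbln1/Necab1, and took 51.5% of the foot shock and 48.2% of the control mix in Ddc. Camk2d took the largest share in the others. It reached 428 CPM (376 to 486) in foot shock and 474 (427 to 526) in control cells of Sv2c/Chrm2/Cpne4, where it was 57.4% of the foot shock and 64.7% of the control mix, and 588 CPM (484 to 707) in the 42 foot shock cells of Syt15/Sema3d/Bmp2. The control library had only 16 cells of that subcluster. Camk2d was lowest in Fam19a1/Lypd1, at 146 CPM in foot shock and 192 in control. Camk2g ranged over the subclusters between 45.5 and 115 CPM in the foot shock library and between 18.7 and 110 CPM in the control library, the lowest on 4 UMIs.

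The subclusters divided by Gpr151, an orphan receptor gene that marks part of the LHb. The 4 with the least Gpr151 over both libraries, Ddc, Megf11, Fam19a1 and Lmo7, had between 3.9 and 33.1 CPM of it, and the other 6 between 241 and 772. Camk2d was below 270 CPM in all 4 low-Gpr151 subclusters of both libraries and above 310 CPM in the 6 high ones of the foot shock library and the 5 of these measured in the control library. Over the 10 subclusters, the Pearson correlation with Gpr151 on a log2 scale was 0.911 for Camk2d, -0.839 for Camk2b and -0.695 for Camk2a. These points share both libraries, differ in cell number and were made by clustering with Gpr151 as a marker, so the values only describe them. Over the 9 MHb-like subclusters the correlation was 0.077 for Camk2d, -0.719 for Camk2b and 0.767 for Camk2a. Only the Camk2b relation thus ran the same way in both parts. Gpr151 was at 298 CPM in foot shock and 257 in control MHb-like neurons. LHb-like neurons had 380 CPM in foot shock and 221 in control.

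**Figure D3:**
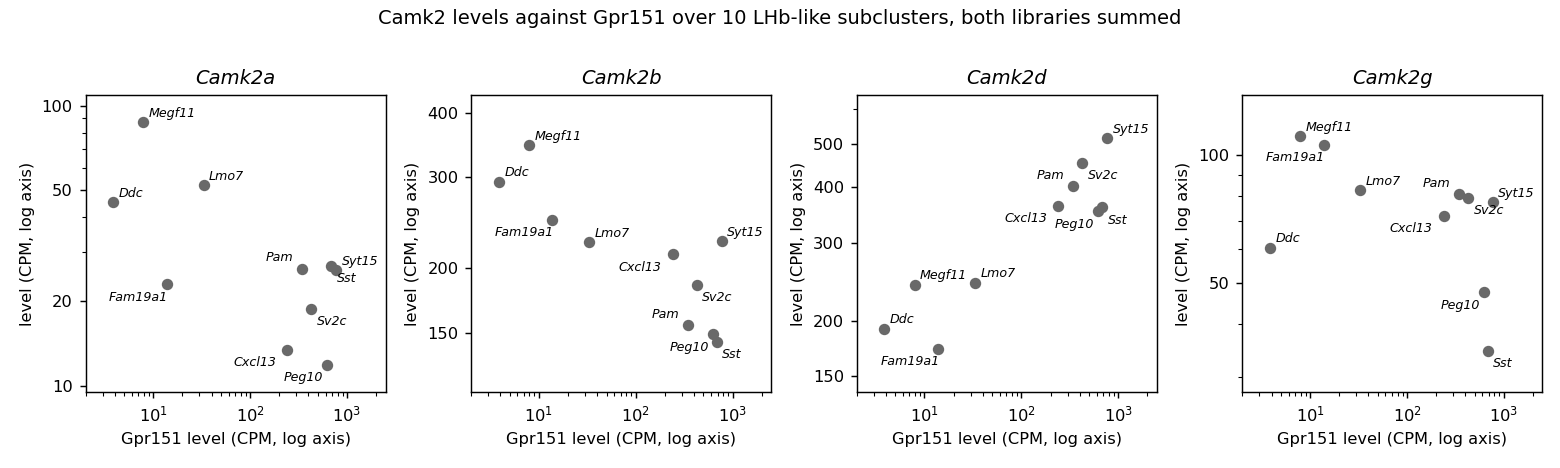
Level of each Camk2 gene against the level of Gpr151 (both in CPM, log axes) in 10 LHb-like subclusters, both libraries summed, each point labelled with one of its leading genes. Camk2d is higher in the 6 subclusters with Gpr151 of 241 CPM or more, and Camk2b is highest in Megf11 and Ddc, which have under 10 CPM of it.

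LHb-like neurons were also split by a single gene, Gpr151, a division added after the data were seen. It used the same cells and the same gene as the subcluster comparison. The values below therefore describe that contrast again and are no separate support for it. Neurons with a Gpr151 UMI numbered 396 in the foot shock library and 331 in the control library, and those without numbered 459 in foot shock and 631 in control. Camk2d was at 412 CPM with and 240 without Gpr151 in the foot shock library, a ratio of 1.72 (1.51 to 1.96). The control library had 406 CPM with and 256 without, and its ratio was 1.59 (1.42 to 1.77). Camk2b went the other way, at 189 CPM with and 261 without Gpr151 in the foot shock library (ratio 0.724, 0.622 to 0.842), and at 173 CPM with and 279 without in the control library (ratio 0.620, 0.540 to 0.711). Camk2a had ratios of 0.454 (0.298 to 0.683) in foot shock and 0.331 (0.218 to 0.490) in control, and Camk2g of 0.689 (0.532 to 0.890) in foot shock and 0.691 (0.542 to 0.877) in control. Of all genes with at least 100 UMIs, 14.4% in the foot shock library and 17.0% in the control library were past 1.5-fold in either direction between these groups. Cells with a Gpr151 UMI were deeper, with a median of 4022 against 3026 UMIs in the foot shock library and 4963 against 3651 in the control library. The part of depth in these ratios was not tested, nor was that of Pou4f1, which ran with Gpr151 over the subclusters.

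Within the MHb, Camk2b and Camk2g varied more over 9 subclusters than Camk2d did. Camk2b was highest in Fgf1/Syndig1l/Myo16, at 355 CPM (320 to 392) in the foot shock library and 342 (303 to 384) in the control library. It was lowest in the Cck-led subcluster, which also carried Adcyap1, at 104 CPM (81.9 to 131) in the foot shock library and 116 (89.9 to 146) in the control library. In the mix, Camk2b took 48.9% in foot shock and 49.7% in control of Fgf1, and 24.4% in foot shock and 28.4% in control of Cck. Camk2g lay between 41.9 and 111 CPM in the foot shock library and between 33.0 and 104 CPM in the control library, the last on 4 UMIs of the Synpr/Slc18a3/Agrn subcluster. Camk2d lay between 228 and 398 CPM in the foot shock library and between 225 and 276 CPM in the control library. Highest over lowest, this was 3.40-fold in foot shock and 2.96-fold in control for Camk2b, 2.65-fold in foot shock and 3.14-fold in control for Camk2g, and 1.74-fold in foot shock and 1.23-fold in control for Camk2d. The highest foot shock value of Camk2d came from the 24 cells of the Synpr subcluster. Camk2a was at most 14.1 CPM in foot shock and 25.2 in control.

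**Figure D4:**
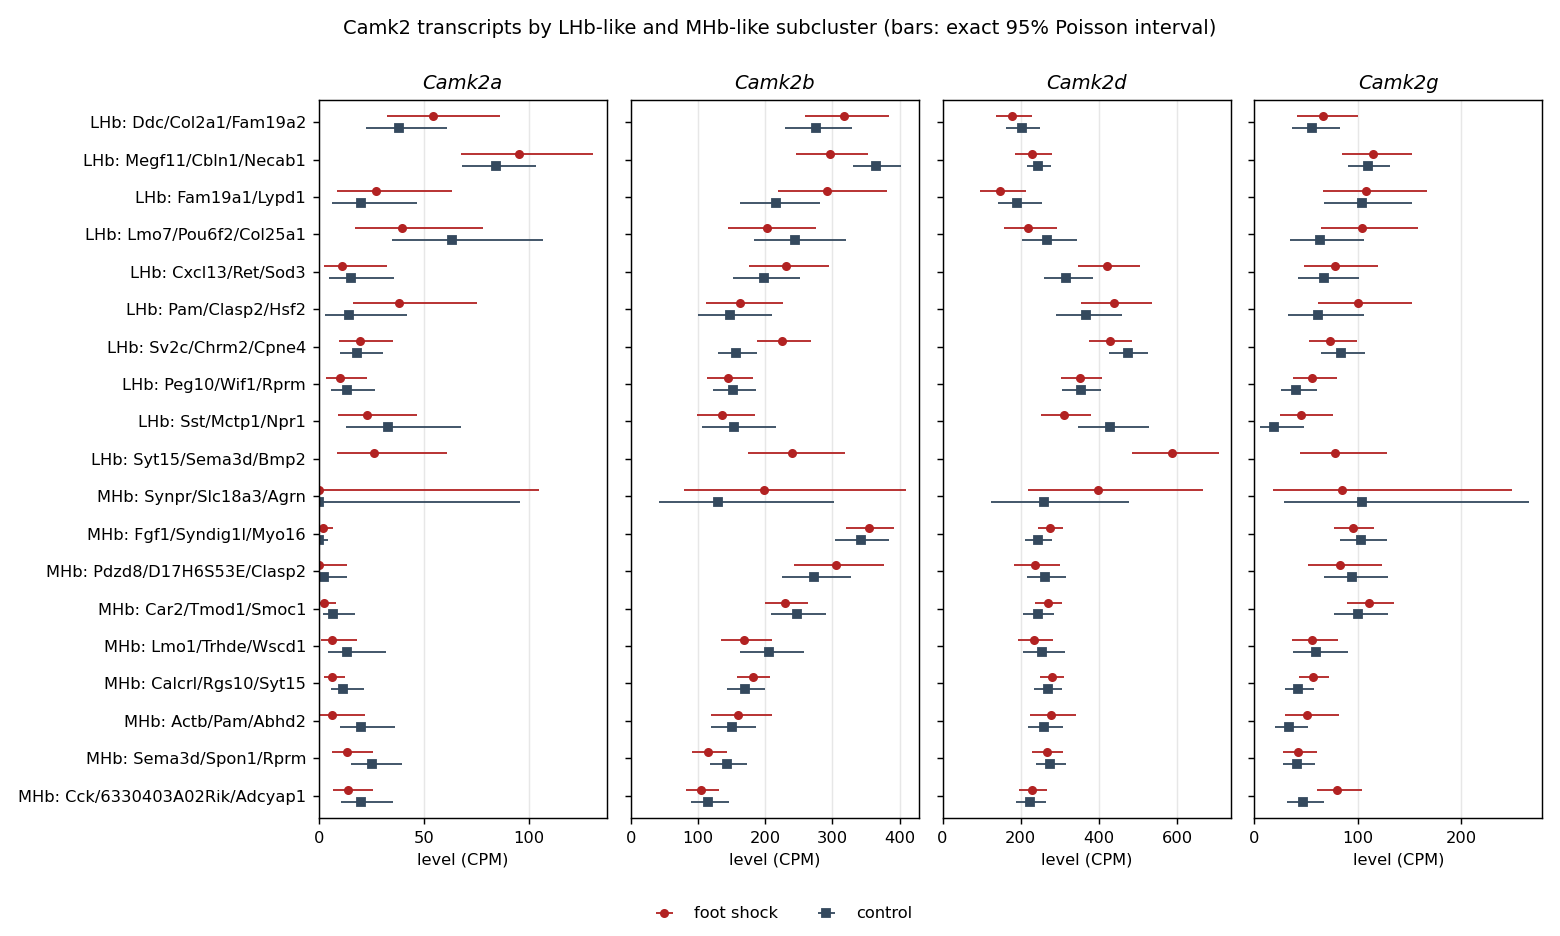
Level of each Camk2 gene (CPM, exact 95% intervals) in 10 LHb-like subclusters ordered by rising Gpr151 and 9 MHb-like subclusters ordered by falling Slc5a7, red circles for the foot shock library above dark squares for the control library. Camk2d is lower in the 4 low-Gpr151 LHb-like subclusters, and Camk2b peaks at 355 CPM in foot shock and 342 in control cells of the Fgf1 subcluster of the MHb.

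Camk2b also differed between MHb-like neurons split by transmitter genes, a division added after the data were seen. Chat makes acetylcholine, Slc5a7 takes up choline for it, and Tac1 encodes the substance P precursor. Neurons with a Chat or Slc5a7 UMI and no Tac1 UMI, 876 in the foot shock library and 670 in the control library, had Camk2b at 248 CPM in foot shock and 250 in control. Neurons with a Tac1 UMI and neither of the others, 193 in foot shock and 184 in control, had 121 CPM in foot shock and 108 in control. The ratio was 2.04 (1.61 to 2.63) in the foot shock library and 2.31 (1.81 to 2.97) in the control library. Camk2g was also higher in the cholinergic group, at 84.6 against 54.9 CPM in the foot shock library, a ratio of 1.54 (1.07 to 2.28). The control library had 80.9 against 37.1 CPM, a ratio of 2.18 (1.44 to 3.43). Camk2d had ratios of 1.10 (0.924 to 1.32) in foot shock and 1.05 (0.888 to 1.25) in control, which hold 1. The subclusters did not all run this way. Synpr/Slc18a3/Agrn had the most Slc5a7, 1981 CPM over both libraries, and Camk2b at 199 CPM (80.0 to 410) on 7 UMIs in foot shock and 130 (42.2 to 303) on 5 UMIs in control. Its control Camk2b share of 26.3% was the lowest of the 9 in that library. These 2 split groups differed widely, with 30.5% of genes in the foot shock library and 29.6% in the control library past 1.5-fold in either direction.

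Astrocyte-like cells were the class richest in Camk2g. They had 55 UMIs and 289 CPM (218 to 376) in the foot shock library and 315 UMIs and 419 CPM (374 to 468) in the control library. Astrocyte-like over LHb-like, the Camk2g ratio was 3.67 (2.69 to 4.93) in the foot shock library and 5.52 (4.71 to 6.47) in the control library. Camk2d was lower in astrocyte-like cells, at 210 CPM (150 to 286) in foot shock and 202 (171 to 237) in control, a ratio of 0.631 (0.448 to 0.866) in foot shock and 0.634 (0.533 to 0.751) in control. Camk2b was nearly missing, with ratios of 0.142 (0.052 to 0.311) in foot shock and 0.085 (0.047 to 0.141) in control. All 4 genes were past 1.5-fold in both libraries, Camk2a of the foot shock library on 3 UMIs, but 69.8% of all genes in the foot shock library and 67.1% in the control library were so between these classes. TMM scaling shifted them by -0.25 in foot shock and -0.27 in control on the log2 scale. A Camk2g UMI was found in 32.4% (24.9 to 40.7) of foot shock and 42.5% (38.5 to 46.6) of control astrocyte-like cells, or 26.6% of foot shock and 35.2% of control ones after thinning. It was found in 4.00% of foot shock and 2.40% of control oligodendrocyte-like cells. Those cells were deeper than astrocyte-like cells, whose median was 1178 UMIs in foot shock and 1185 in control.

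Mural-like cells, the pericytes and smooth muscle of vessels, carried the delta and gamma isoforms. Camk2d was at 366 CPM (247 to 522) in 61 foot shock cells and 308 (200 to 455) in 54 control cells, as high as in LHb-like neurons within counting error. Camk2g was at 195 CPM (111 to 317) in foot shock and 210 (122 to 336) in control, a mural-like over LHb-like ratio of 2.47 (1.39 to 4.10) in foot shock and 2.77 (1.59 to 4.50) in control. Astrocyte-like cells exceeded mural-like cells in Camk2g in the control library, by 2.00 (1.23 to 3.47), and the foot shock ratio of 1.48 (0.837 to 2.77) holds 1. In microglia-like cells Camk2d made up 67.6% (49.5 to 82.6) of the mix in foot shock and 78.8% (61.1 to 91.0) in control. These shares rest on 34 UMIs of the 4 genes in foot shock and 33 in control. Its level there was 182 CPM (116 to 274) in foot shock and 144 (94.3 to 212) in control. Endothelial-like cells had Camk2d at 136 CPM (75.9 to 224) in foot shock and 134 (82.9 to 205) in control. Free RNA held Camk2d at 120 CPM in foot shock and 125 in control, within the intervals of both classes. Neither level was thus above that of free RNA beyond counting error. Free RNA was estimated at 97.5% of the foot shock and 15.9% of the control endothelial-like profile. For microglia-like cells the estimates were 91.6% in foot shock and 24.9% in control. The part of free RNA in these Camk2d levels was not tested.

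The oligodendrocyte lineage had little of any isoform once mature. LHb-like over oligodendrocyte-like, the ratios in the foot shock library were 20.1 for Camk2a, 14.9 for Camk2b, 13.2 for Camk2d and 3.73 for Camk2g. In the control library they were 23.8 for Camk2a, 24.3 for Camk2b, 11.7 for Camk2d and 6.23 for Camk2g. All 4 genes were at least 1.5-fold higher in LHb-like neurons, as were 57.5% of all genes in the foot shock library and 54.8% in the control library, and TMM scaling shifted these ratios by 0.71 in foot shock and 0.66 in control on the log2 scale. Oligodendrocyte precursor-like cells had more. Precursor-like over mature oligodendrocyte-like, the ratio was 8.10 in foot shock and 6.93 in control for Camk2b, 5.62 in foot shock and 4.90 in control for Camk2d and 3.71 in foot shock and 2.75 in control for Camk2g. Free RNA was estimated at 100% of the foot shock and 77.6% of the control precursor-like profile, and at 20.5% of the foot shock and 14.8% of the control mature one. The 100% is an upper limit of the estimate and not a measured share. Genes used for it were at 2884 CPM in foot shock precursor-like cells, above the 2208 of free RNA itself. The part of free RNA in the precursor-like over mature ratios was not tested.

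Foot shock and control libraries had closely similar Camk2 levels in habenula neurons, with Camk2a in the MHb as the exception. Foot shock over control in LHb-like neurons, the ratio was 0.861 (0.670 to 1.10) for Camk2a, 0.946 (0.857 to 1.04) for Camk2b, 1.05 (0.964 to 1.13) for Camk2d and 1.04 (0.878 to 1.23) for Camk2g. None of the 4 was past 1.5-fold in either direction, where 3.24% of genes with at least 100 UMIs were. In MHb-like neurons Camk2b was at 1.01 (0.929 to 1.10), Camk2d at 1.03 (0.958 to 1.11) and Camk2g at 1.15 (0.995 to 1.34). Of all genes there, 2.32% were past 1.5-fold. These intervals bound the difference between the 2 pooled libraries only and say nothing of the spread between mice.

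Camk2a in MHb-like neurons had a ratio of 0.504 (0.323 to 0.774), with 35 UMIs in the foot shock library and 62 in the control library. Its 97 UMIs fell under the minimum of 100, and among genes with at least 20 UMIs, 7.52% were past 1.5-fold. Free RNA moved with it. The foot shock over control ratio of Camk2a in free RNA was 0.454 (0.294 to 0.690), and both MHb-like levels were below the free RNA levels. With the estimated free RNA subtracted, 10.1% of the foot shock and 7.87% of the control MHb-like profile, the ratio was 0.504. Because the free RNA ratio was close to the MHb-like one, this subtraction could move the ratio little. It cannot tell whether free RNA had a part in the difference. In the 6 MHb-like subclusters with Camk2a UMIs in both libraries the ratio was between 0.299 and 0.702, below 1 in each, on at most 10 UMIs in foot shock and 19 in control. Their intervals held 1, as did those of 2 subclusters with UMIs in 1 library, and the Synpr subcluster had none in either library.

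Thalamus-like neurons had foot shock over control ratios of 0.887 (0.604 to 1.28) for Camk2a, 0.951 for Camk2b, 0.889 for Camk2d and 1.31 for Camk2g. Other neurons had 1.04, 0.987, 0.929 and 0.798 for the same genes. Every one of these 8 intervals held 1 and none was past 1.5-fold, against 5.41% of genes in thalamus-like and 6.35% in other neurons. With neurons assigned cell by cell from marker counts, Camk2g in thalamus-like neurons was at 3.08 and Camk2a in other neurons at 0.497, and after thinning Camk2a in other neurons was at 1.67. In LHb-like subclusters, 9 of which had enough cells in both libraries, all Camk2a and Camk2g intervals held 1. For Camk2b and Camk2d, 7 of 9 did so. Camk2b was higher in the foot shock library in Sv2c/Chrm2/Cpne4, at 1.43, and lower in Megf11/Cbln1/Necab1, at 0.811. Camk2d was higher in Cxcl13/Ret/Sod3, at 1.33, and lower in Sst/Mctp1/Npr1, at 0.725. In MHb-like subclusters all 9 Camk2b and all 9 Camk2d intervals held 1, and Camk2g was higher in the Cck subcluster, at 1.71. Among this many subcluster intervals, some can miss 1 by counting error alone. No share over all genes is given for subclusters, so a difference between libraries particular to a subcluster was not tested.

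**Figure D5:**
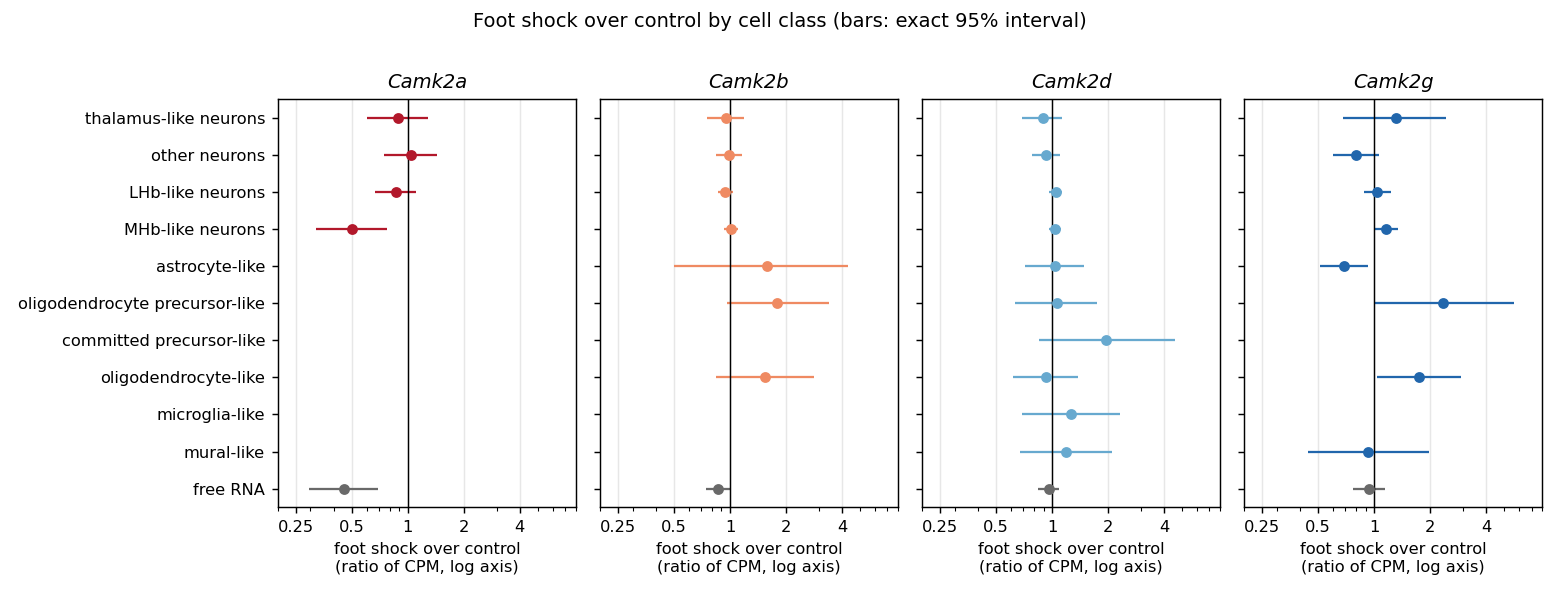
Foot shock over control ratio of CPM (log axis) for each Camk2 gene by cell class and in free RNA, with exact 95% intervals, drawn where both libraries together had at least 20 UMIs. Camk2b and Camk2d of all neuron classes span 1, and Camk2a of MHb-like neurons (0.504) lies near that of free RNA (0.454).

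Glia gave less certain comparisons. Camk2g in astrocyte-like cells had a foot shock over control ratio of 0.691 (0.509 to 0.922), within 1.5-fold, while 16.6% of genes with at least 100 UMIs were beyond it. It was 0.945 with cells of 500 UMIs or more and 0.838 with free RNA subtracted. Summed neuron markers in those cells were at 2392 CPM in the foot shock library and 694 in the control library, with 6 of 6 detected in both, and their part in the ratio was not tested. Camk2d had a ratio of 1.04 there. In oligodendrocyte-like cells Camk2g had 37 UMIs in foot shock and 29 in control, and a ratio of 1.74 (1.04 to 2.93), with Camk2b at 1.54 (0.844 to 2.82), both past 1.5-fold, as were 9.56% of genes. Over the alternatives the Camk2g ratio was between 0.993 and 2.98 and the Camk2b ratio between 0.702 and 1.60. Summed neuron markers were at 767 CPM in foot shock and 394 in control. In oligodendrocyte precursor-like cells Camk2g was at 2.35 (1.01 to 5.65), on 15 UMIs in foot shock and 11 in control, and between 1.49 and 3.95 over the alternatives. Microglia-like cells had 8 Camk2b UMIs in foot shock and 1 in control, and free RNA was estimated at 91.6% of the foot shock and 24.9% of the control profile.

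Several partners of CaMKII differed widely between LHb-like and MHb-like neurons. They were counted in 6 lists of 53 genes, among genes with at least 20 UMIs. In that set 21.7% of all genes were at least 1.5-fold higher and 11.1% lower in the LHb-like neurons that came from foot-shocked mice, and 22.8% higher and 11.8% lower in the control library. Among the genes for calmodulin itself, Calm2 had a ratio of 1.34 in foot shock and 1.43 in control and Calm3 one of 0.92 in foot shock and 0.94 in control. Of 6 calmodulin-binding buffers, 2 were higher and 2 lower in the foot shock library, and 1 was higher and 2 lower in the control library. The neurogranin gene Nrgn was at 74.4 CPM in foot shock LHb-like and 1312 in foot shock MHb-like neurons, and at 63.7 CPM in control LHb-like and 1035 in control MHb-like neurons. Pcp4, another small calmodulin-binding protein, was at 5003 CPM in LHb-like and 16102 in MHb-like neurons of foot-shocked mice, and at 3895 in LHb-like and 15893 in MHb-like neurons of control mice. Both buffers were thus lower in the LHb.

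Genes for the CaMKII inhibitor proteins had ratios of 1.39 in foot shock and 1.38 in control for Camk2n1, and of 1.36 in foot shock and 1.63 in control for Camk2n2. Camk2n1 was far more abundant in thalamus-like neurons, at 2239 CPM in foot shock and 2722 in control, than in LHb-like neurons, at 430 in foot shock and 485 in control. Among 9 measured of 10 other CaM kinases, 4 were higher and 0 lower in each library. Camkk1, a kinase that acts on other CaM kinases, had a ratio of 5.00 in foot shock and 3.20 in control, and Camkv, a kinase-like protein, 2.20 in foot shock and 3.26 in control. Of 12 phosphatase genes, 0 were higher and 1 lower in the foot shock library, and 1 was higher and 1 lower in the control library. The lower one in both was Ppp1r1b, which encodes an inhibitor of protein phosphatase 1, at 0.04 in foot shock and 0.03 in control. Of 19 measured of 20 synaptic partners and substrates, 9 were higher and 4 lower in each library. Grin2b, the NMDA receptor subunit that binds CaMKII, had 6.54 in foot shock and 5.01 in control, Syn2, a synaptic vesicle protein, 7.42 in foot shock and 8.44 in control, and the potassium channel gene Kcnd2 0.15 in both. The median log2 ratio of the synaptic list was 0.17 in foot shock and 0.42 in control, beside 0.13 in foot shock and 0.15 in control over all genes measured. For the other CaM kinases it was 0.34 in foot shock and 0.57 in control. The buffers had -0.35 in foot shock and -0.34 in control, and the phosphatases -0.05 in foot shock and -0.11 in control.

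Between libraries few genes of these lists were past 1.5-fold. Foot shock over control in MHb-like neurons, 0 of the measured genes of any list were past 1.5-fold. In LHb-like neurons Camkv was lower, at 47.0 CPM in the foot shock library and 85.8 in the control library, a ratio of 0.55 (0.45 to 0.66). Ppp1r1b was past 1.5-fold upward on 15 UMIs in foot shock and 13 in control, at 1.53 (0.68 to 3.50), an interval that holds 1. Across LHb-like neurons 8.74% of genes with at least 20 UMIs were past 1.5-fold.

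Across 10 classes of both libraries, 20 points in all, the genes whose log2 level ran most like each isoform were sought among 7534 genes. For Camk2a they included Shox2 (Pearson correlation 0.940), a transcription factor gene, and Fam8a1 (0.918). For Camk2b they were Celf4 (0.970), Caly (0.964) and Zcchc18 (0.962). For Camk2d they included Amotl1 (0.934) and Sept11 (0.913). For Camk2g they were Nt5c2 (0.868), Mfhas1 (0.847) and Pygb (0.845). Within the family Camk2a and Camk2b ran most alike, at 0.832, and Camk2a and Camk2g least, at 0.233. The points share 2 libraries and their free RNA, and the classes were made from the same cells.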

How the data were processed

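The deposited matrices hold UMI counts per gene and barcode that, per the submitters' processing notes, came from Cell Ranger 2 and mm10. The labels give 10x 3′ version 2 chemistry. No annotation release was given in the sources used here, and all barcodes, not called cells, were deposited. The authors' values were used unchanged.

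Cells needed 1000 UMIs, 500 to 6000 genes and at most 20% mitochondrial UMIs. Doublets were removed with Scrublet in scanpy 1.11.5 (rate 0.08). Both libraries were clustered together (2000 features, 30 components, 15 neighbours, Leiden 0.10.2 at resolution 1.0), leaving out the Camk2 genes, the 53 partner genes and 61 activity-response genes from the features. A cluster was named by at least 3 markers found in 10% of its cells. Habenula neurons needed Pou4f1 at 1 per 10000 UMIs, also in subclusters. The wider rule for neurons, that minimum for subclusters, the removal of mixed subclusters (63 foot shock and 10 control cells) and the single-gene groups were chosen after the data were seen, and the members and lists were chosen with earlier results of these data known. Genes named beyond the 4 were the 3 most alike by correlation and list members.

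Counts were summed per class and library and divided by the class total. Ratios, exact 95% intervals (scipy 1.17.1) and floors of 3 counts were computed from these sums, a method checked on drawn counts with known ratios. A ratio past 1.5 in either direction was counted as past the threshold. Free RNA was taken from 94619 foot shock and 74374 control barcodes. Of 28692 gene identifiers, 28339 matched GENCODE vM21. Alternatives were 14 planned and 3 added. Protein sequences were not used here. Values of some genes are not reported here.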

Additional observations from a re-analysis of the deposited data

How the results depend on the processing

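With 1 library a group, leaving out a replicate could not be run, and both pooled libraries set every limit below. No paired analysis was possible because each group has 1 library. Of 216 values of the 16 leading ratios under the alternatives, 188 moved by less than counting error; the cause was not tested for the others. LHb-like over MHb-like in the control library, Camk2a was 2.38 with cells of 500 UMIs, 2.21 with 2000, 4.70 with neurons assigned by marker and 1.98 with the added Pou4f1 minimum of 2. Camk2b was 1.20 by marker and 0.957 with TMM scaling in the foot shock library. In the control library it was 0.963 with 500 UMIs, 0.981 with 2000, 0.904 with the Pou4f1 minimum of 2, 1.02 at resolution 2.0, 1.30 by marker and 1.02 with TMM. Camk2d was 1.38 with that minimum and 1.13 with TMM in the foot shock library, and 1.36 at resolution 2.0, 1.39 thinned, 1.40 with that minimum and 1.12 with TMM in the control library. Camk2g of the control library was 0.983 with 500 UMIs, 1.40 by marker, 0.973 thinned and 0.929 with that minimum. Foot shock over control, Camk2d was 1.15 in MHb-like neurons when thinned. In LHb-like neurons Camk2b was 1.06 with 500 UMIs, 1.05 with 2000, 1.13 at resolution 2.0 and 1.10 with that minimum, and Camk2g 1.35 when thinned. In oligodendrocyte-like cells Camk2g was 0.993 with 500 UMIs. Other over LHb-like neurons by marker, Camk2a was 0.887 and Camk2g 0.882 in the foot shock library, and Camk2b 0.974 and Camk2g 0.812 in the control library. The foot shock over control ratio of Camk2a in MHb-like neurons kept between 0.425 and 0.577. Depth limits the small classes: Camk2a in astrocyte-like cells, on 3 UMIs in foot shock and 5 in control, had a foot shock over control ratio of 2.37 (0.368 to 12.2), so no difference was detectable at this depth. The Pou4f1 minimum of 2, the control makeup of subclusters and the single-gene groups were added after the data were seen.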
